A study of Homo sapiens with 27 samples.

Results

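Phototransduction and photoreceptor structure genes were examined in bulk RNA-seq libraries of human embryonic stem cells that had been differentiated toward photoreceptors on laminin matrices. The list held 44 genes, chosen by symbol with earlier results of these data known. Of these, 42 had a row among the 44852 genes of the count and TPM tables. GNAT2 and GUCA1C were not analysed here. All 27 libraries came from H1, a human embryonic stem cell line, and each of 9 groups, formed by 3 matrices and 3 days, had 3 libraries. Laminins are basement membrane proteins of 3 different chains, and each matrix is called after the first isoform in its label, LN523, LN323, or LN521. The sample labels give the coating of LN523 and of LN521 as a combination with LN323, and that of LN323 as this isoform alone, whereas the methods of the study give LN523 and LN323 as combinations with LN521, and LN521 alone, so the exact mixture behind each name is uncertain. The day 2 libraries are labelled as undifferentiated cells. After day 2 every culture received the same media, first a neural induction medium with CKI-7 and SB431542, and then a photoreceptor medium with BDNF, CNTF, retinoic acid, and DAPT, and the libraries of days 22 and 32 came from these cells. No cell type was sorted before RNA extraction, so every value is an average over a mixed culture, and fewer cells of a type and less RNA per cell cannot be told apart. In the titles of the libraries these days are numbered 0, 20, and 30. Replicates were not stated to come from separate cultures, so p-values measure only the spread between these libraries.

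In rods and cones, light changes an opsin, which activates the G protein transducin. Transducin activates a phosphodiesterase that breaks down cyclic GMP, and cation channels held open by cyclic GMP then close. Kinases, arrestins, and an RGS protein end the response, and guanylate cyclase with its calcium sensing activator proteins makes new cyclic GMP. Rods and cones use different genes for many of these steps, and the proteins sit in stacked membrane discs of the outer segment, which is surrounded by a matrix rich in retinol binding protein and proteoglycans. In retinal development these genes come on late, after precursor factors such as OTX2 and CRX.

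Libraries held between 25620624 and 47340990 counts in sum (median 39862487). POU5F1, a defining factor of pluripotent cells, stood at 2216 to 2597 TPM (transcript abundance scaled to a fixed total of 1000000) in the 9 day 2 libraries. In the day 22 and day 32 libraries it stood at 1.24 to 3.49 TPM, except in LN521 replicate 1, which had 108.4 TPM at day 22 and 22.1 TPM at day 32. CRX, the factor that marks photoreceptor precursors, was at 0 to 0.268 TPM at day 2. It stood at 1.00 to 9.90 TPM at day 22 and at 1.99 to 23.8 TPM at day 32. NR2E3, a rod factor, was at most 0.394 TPM in any day 32 library. Levels below are the TPM deposited by the authors, listed in the order of replicates 1, 2, and 3. A gene was called detected in a group when each of its 3 libraries had at least 10 counts, and it was taken to start on a matrix at the first day on which it was detected there.

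Of the 42 genes, 18 were detected on LN523 at day 2, 17 at day 22, and 20 at day 32. On LN323 the numbers were 18, 20, and 21. On LN521 they were 23, 19, and 23. Among all genes, 18647, 20593, and 20257 had a mean of at least 1 TPM on LN523 at days 2, 22, and 32. On LN323 it was 18326, 19902, and 20442 genes, and on LN521 22753, 20734, and 20802. The number of all genes detected by the rule of 10 counts is not given here. Differences between groups in the detected number are therefore no result about the 42 genes. A group of 11 genes was detected in all 9 groups, namely GNB3, PDE6B, GUCA1A, OPN1SW, RGS9, RGS16, ROM1, PRCD, TULP1, UNC119, and SLC24A1. A further 7 genes, GNGT1, CNGA1, GUCA1B, GUCY2D, AIPL1, EYS, and CRB1, were detected in at least 1 day 2 group and in some later groups. RBP3, IMPG1, IMPG2, CNGB3, ARR3, and ABCA4 were first detected at day 22, and PDE6H, CNGA3, PDC, and RD3 at day 32. In contrast, GNAT1, GNGT2, PDE6G, GRK1, and PRPH2 were detected at day 2 alone, 5 genes in all. RCVRN, PDE6A, PDE6C, CNGB1, GUCY2F, SAG, GRK7, RP1, and MPP4, 9 genes, were detected in no group. The start differed between matrices for several genes. RBP3 started at day 22 on LN323 and at day 32 on LN523 and LN521. CNGA3 started at day 32 on LN523 alone and PDC on LN521 alone, since replicate 3 had 0 counts of PDC on LN523 and 2 on LN323. On LN323 and LN521, CNGA3 missed the minimum at day 32 through a single library each. With a minimum of 5 counts it was detected at day 32 on each matrix. A minimum of 5 counts gave 24, 26, and 31 genes at day 32 on LN523, LN323, and LN521, and a minimum of 20 counts gave 19, 17, and 18.

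**Figure D1:**
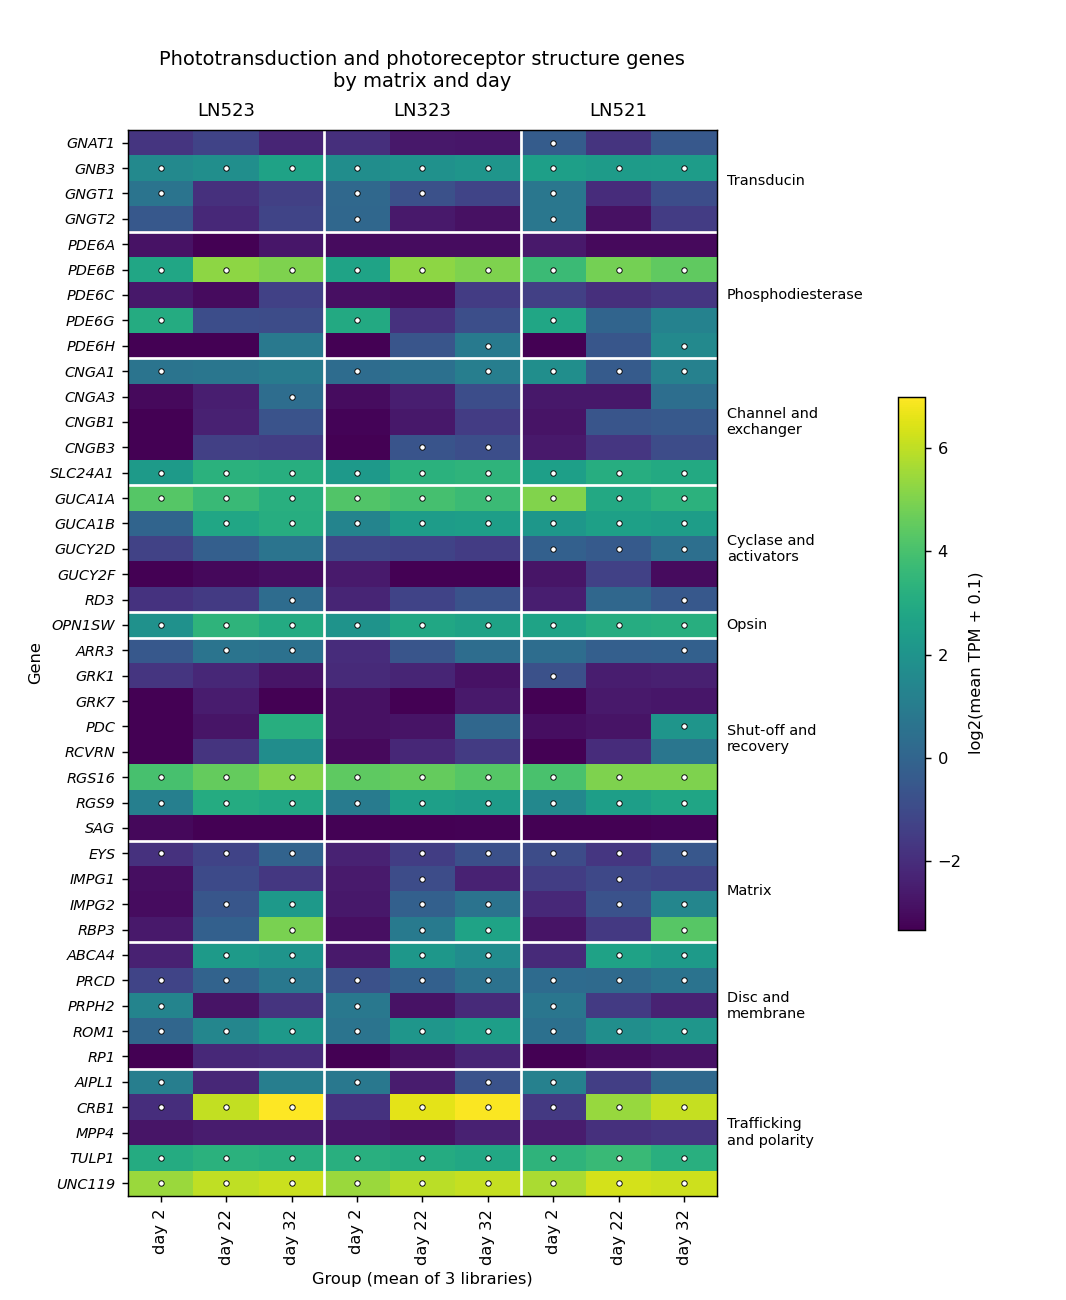
Mean TPM of the 42 genes in the 9 groups, on the scale log2(mean TPM + 0.1), with genes in rows grouped by role and groups in columns. White circles mark groups in which each of the 3 libraries had at least 10 counts. CRB1 and UNC119 are the brightest rows at day 32, and the rows of PDE6G and PRPH2 are marked only at day 2.

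Levels were uneven among the genes. CRB1 and UNC119 together made up 50.8% of the summed mean TPM of the 42 genes on LN523 at day 32, 59.2% on LN323, and 46.8% on LN521. At the other end, SAG, which encodes the arrestin of rods, had 0 counts in 23 of 27 libraries and at most 4. Over the 9 day 32 libraries, 12 genes had a mean of at least 5.07 TPM. In order, these were CRB1, UNC119, PDE6B, RGS16, RBP3, GUCA1A, SLC24A1, TULP1, OPN1SW, GUCA1B, RGS9, and GNB3. Their means ran from 105.6 TPM for CRB1 to 5.07 TPM for GNB3. Of these 12 genes, 9 were detected in each of the 3 day 2 groups, CRB1 and GUCA1B in 2 of them, and RBP3 in none.

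Changes between days were tested with edgeR's quasi-likelihood test on all 27 libraries, and a gene was called when its Benjamini-Hochberg adjusted p-value over all genes was under 0.05. Values after ± in fold changes are standard errors. Fold changes use edgeR's scaling of libraries (TMM), which the deposited TPM do not have. A lack of overlap in TPM is therefore on another scale than the fold change beside it. Between day 2 and day 22, 14 of the 42 genes (33.3%) were called on LN523, beside 21.7% of all genes. On LN323 the share was 11 of 42 (26.2%), beside 22.7% of all genes, and on LN521 it was 13 of 42 (31%), beside 18.9% of all genes. By direction, 10 genes rose and 4 fell on LN523, 7 rose and 4 fell on LN323, and 7 rose and 6 fell on LN521. Among all genes, 11.5%, 11.8%, and 10.8% rose and 10.2%, 10.9%, and 8.09% fell on LN523, LN323, and LN521. CRB1, ABCA4, IMPG2, and PDE6B rose on each of the 3 matrices, whereas PDE6G, PRPH2, and AIPL1 fell on each. From day 22 to day 32, 4 genes (9.52%) were called on LN523 beside 0.381% of all genes, 2 (4.76%) on LN521 beside 0.268%, and 0 on LN323 beside 0.0424%. All 6 of these calls were rises, beside 0.343%, 0.196%, and 0.0357% of all genes that rose on LN523, LN521, and LN323, and were of RBP3 and PDC on both matrices and of IMPG2 and AIPL1 on LN523. With a stricter filter on low counts (edgeR filterByExpr) 0 of the 6 calls passed, and in all 0% of genes were called on LN523 and 0.0195% on LN521. On LN323, 5 of the 42 genes had edgeR p-values under 0.05 before adjustment, beside 1280 of all 44852 genes. DESeq2 also called 0 there, beside 0.0223% of all genes. The median log2 fold change of the 42 genes between these days was 0.64 on LN523, 0.31 on LN323, and 0.39 on LN521, beside 0.00 over all genes on each matrix. Because the list was chosen with earlier results of these data known, these shares and medians do not test an independent list.

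Markers of other cell types had moved between days 2 and 22. All 8 neural retina progenitor markers rose on each matrix, with a median log2 fold change of 8.19 on LN523, 8.45 on LN323, and 7.38 on LN521. Their summed level in single libraries of LN523, LN323, and LN521 stood at 171 to 483, 239 to 654, and 249 to 344 TPM at day 2 and at 3492 to 7976, 4672 to 8532, and 3156 to 6181 TPM at day 22. All 8 pluripotent cell markers fell on each matrix, with sums in the same order of 10980.0 to 11790.0, 10740.0 to 11590.0, and 9939 to 11190.0 TPM at day 2 and 101 to 239.7, 104 to 124, and 168 to 669.5 TPM at day 22. Of 9 pigment epithelium markers 6, 7, and 7 rose, with sums of 162 to 198, 144 to 196, and 186 to 267 TPM at day 2 and 1201 to 1615, 1054 to 2203, and 1814 to 2627 TPM at day 22. Of 10 keratinocyte markers 8, 9, and 7 rose, with sums of 62.9 to 67.1, 60.2 to 70.9, and 56.9 to 72.1 TPM at day 2 and 239 to 344, 234 to 276, and 199 to 251 TPM at day 22. Of 12 photoreceptor precursor markers 5, 6, and 6 rose and 2, 1, and 1 fell, with sums of 89.6 to 160.1, 70.5 to 129, and 107 to 195 TPM at day 2 and 54.1 to 105, 86.8 to 152, and 70.3 to 119 TPM at day 22. OTX2 fell on each matrix. Of the amacrine and horizontal cell markers 4 of 8 rose on each matrix, of bipolar cell markers 2, 3, and 3 of 7, of Muller glia markers 2, 1, and 2 of 5, of ganglion cell markers 2 of 7 on each matrix with 2, 2, and 1 lower, and of lens markers 2, 2, and 1 of 6 with 0, 0, and 1 lower. CABP5, a bipolar cell marker, was at 0 in all libraries of days 2 and 22, and TTR, of the pigment epithelium list, in all day 2 libraries. The part of these cells in the calls between days 2 and 22 was not tested.

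**Figure D2:**
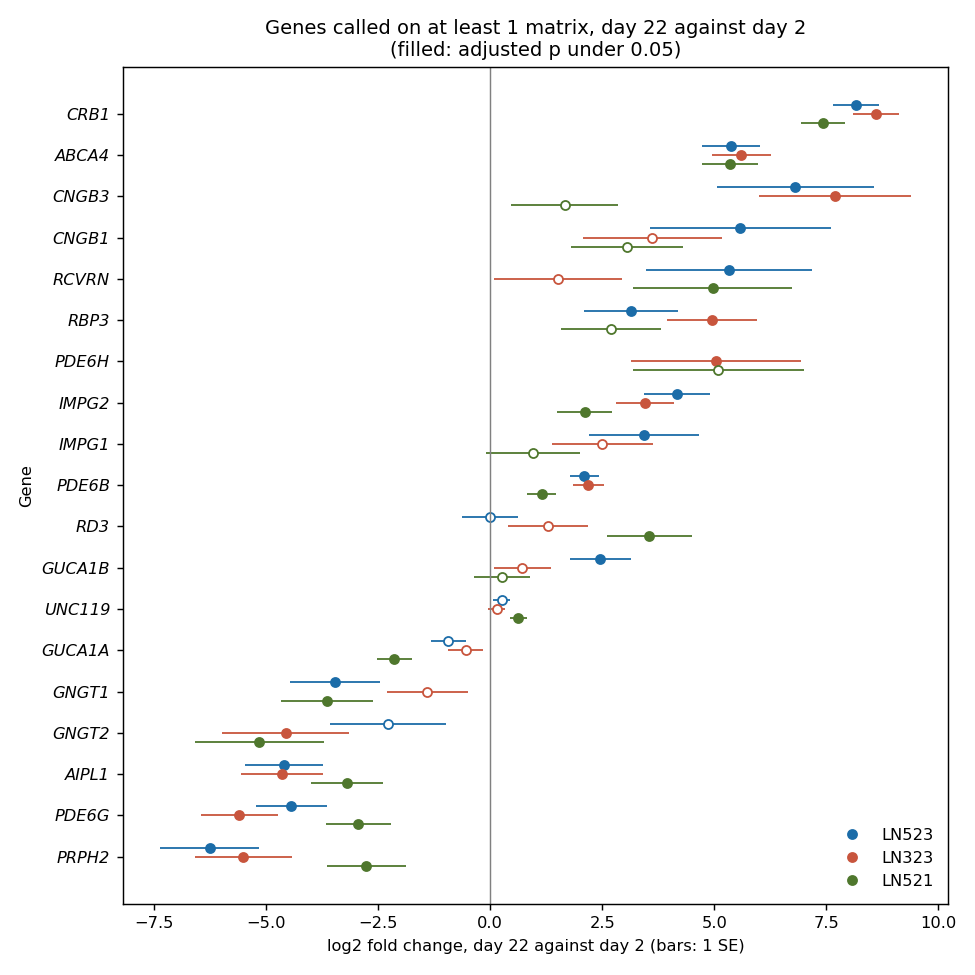
Log2 fold change at day 22 against day 2 of the 19 genes called on at least 1 matrix, with 1 standard error as bars and 1 colour per matrix. Filled points have an edgeR adjusted p-value under 0.05, and a point is left out where both groups are at 0, as for PDE6H on LN523. CRB1 has the largest rises at 8.16, 8.60, and 7.43, and PRPH2, PDE6G, and AIPL1 lie below 0 on each matrix.

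Sequences upstream of 4 genes are shown because these genes moved in different ways, CRB1 rising by day 22, IMPG2 by day 22 and again by day 32, PDC by day 32, and PRPH2 falling by day 22. They are from the RefSeq promoter table for GRCh38.p14, which had entries for 32 of the 42 genes, and cover the 250 bases before an annotated start, given 5′ to 3′ on the strand of the gene. The window of CRB1 was shortened to the 202 bases before its first GENCODE 44 exon. The letters TAATCC and TAATCT, the core that homeodomain factors such as CRX and OTX2 are known to bind, were searched on both strands and stand in capitals. The windows are chr1:197268002-197268203 on the plus strand for CRB1, chr3:101320576-101320825 on the minus strand for IMPG2, chr1:186461115-186461364 and chr1:186448725-186448974 on the minus strand for the 2 starts of PDC, and chr6:42722598-42722847 on the minus strand for PRPH2.
CRB1: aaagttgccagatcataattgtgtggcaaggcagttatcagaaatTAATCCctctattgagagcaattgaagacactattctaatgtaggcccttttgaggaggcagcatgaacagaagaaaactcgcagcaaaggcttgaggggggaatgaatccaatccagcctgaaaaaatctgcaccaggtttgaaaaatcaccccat
IMPG2: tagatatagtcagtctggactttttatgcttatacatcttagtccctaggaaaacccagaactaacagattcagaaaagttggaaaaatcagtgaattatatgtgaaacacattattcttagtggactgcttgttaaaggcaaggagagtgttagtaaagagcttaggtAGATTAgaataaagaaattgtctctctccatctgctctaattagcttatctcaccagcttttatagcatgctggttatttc
PDC, upstream start: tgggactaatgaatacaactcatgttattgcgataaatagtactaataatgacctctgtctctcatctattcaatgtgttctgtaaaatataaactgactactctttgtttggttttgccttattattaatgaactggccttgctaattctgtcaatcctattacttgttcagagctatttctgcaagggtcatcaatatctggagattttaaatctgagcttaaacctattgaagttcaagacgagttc
PDC, downstream start: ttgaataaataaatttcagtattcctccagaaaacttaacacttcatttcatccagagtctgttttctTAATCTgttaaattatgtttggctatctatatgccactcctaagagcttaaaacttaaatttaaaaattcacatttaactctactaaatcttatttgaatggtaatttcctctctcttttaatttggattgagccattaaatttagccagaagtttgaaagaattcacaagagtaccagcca
PRPH2: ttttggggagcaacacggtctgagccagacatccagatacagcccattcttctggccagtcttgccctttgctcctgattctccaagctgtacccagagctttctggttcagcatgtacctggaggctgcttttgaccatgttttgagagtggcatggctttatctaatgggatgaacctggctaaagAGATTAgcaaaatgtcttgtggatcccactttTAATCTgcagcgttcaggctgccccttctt
CRB1 held 1 copy of TAATCC, IMPG2 1 copy of TAATCT on the other strand, and PRPH2 2 copies of TAATCT on opposite strands. PDC held no match before its upstream start and 1 copy of TAATCT before its downstream start. Of the 40 promoter windows of the 42 genes, 22 (55%) held at least 1 of these 2 sequences, beside 11.4% of the 35116 windows in the whole table. TAATCC was in 27.5% of the windows of these genes and in 5.62% of all windows, and TAATCT in 40% and 6.41%. A match is a description of the letters only. Matches were also present in 6 of the 7 genes with an entry that were detected in no group.

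None of the 4 transducin genes was called as higher at a later day. GNB3, the beta subunit of cone transducin, which is also made in other retinal neurons, was detected throughout. On LN523, GNB3 had 3.28, 3.19 and 1.98 TPM at day 2, 3.97, 3.63 and 2.3 TPM at day 22, and 6.81, 6.00 and 5.16 TPM at day 32. On LN323, GNB3 had 4.36, 2.67 and 2.79 TPM at day 2, 2.98, 3.54 and 4.31 TPM at day 22, and 4.22, 4.68 and 3.29 TPM at day 32. On LN521, GNB3 had 7.24, 6.53 and 3.07 TPM at day 2, 5.7, 3.74 and 5.64 TPM at day 22, and 8.34, 2.14 and 5.00 TPM at day 32. All 3 LN523 libraries of day 32 exceeded those of day 22, but GNB3 was not called (0.95 ± 0.43 on the log2 scale, edgeR adjusted p = 1), and 16% of its exonic length lies opposite exons of CDCA3. The setting of strand in the counting was not given in the sources used here, so reads of overlapping genes may be shared.

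GNGT1 and GNGT2 encode the gamma subunits of rod and cone transducin, and both were highest at day 2. On LN523, GNGT1 had 15, 23 and 52 counts at day 2, 4, 6 and 2 counts at day 22, and 4, 16 and 0 counts at day 32. On LN323, GNGT1 had 36, 28 and 20 counts at day 2, 10, 10 and 10 counts at day 22, and 7, 8 and 7 counts at day 32. On LN521, GNGT1 had 34, 27 and 49 counts at day 2, 1, 10 and 0 counts at day 22, and 14, 6 and 9 counts at day 32. GNGT1 fell by day 22 on LN523 (-3.46 ± 1.01 on the log2 scale, edgeR adjusted p = 0.00763) and on LN521 (-3.64 ± 1.02 on the log2 scale, edgeR adjusted p = 0.00627), and on LN323 the difference was -1.40 ± 0.91 on the log2 scale, edgeR adjusted p = 0.347. For GNGT2 the counts were as follows. On LN523, GNGT2 had 11, 6 and 12 counts at day 2, 0, 4 and 2 counts at day 22, and 10, 6 and 2 counts at day 32. On LN323, GNGT2 had 28, 12 and 20 counts at day 2, 2, 0 and 0 counts at day 22, and 0, 0 and 2 counts at day 32. On LN521, GNGT2 had 36, 18 and 19 counts at day 2, 2, 0 and 0 counts at day 22, and 4, 0 and 8 counts at day 32. All LN323 and LN521 libraries of day 22 were below those of day 2, and GNGT2 fell on LN323 (-4.56 ± 1.42 on the log2 scale, edgeR adjusted p = 0.0131) and on LN521 (-5.15 ± 1.44 on the log2 scale, edgeR adjusted p = 0.006). On LN523 the difference was -2.28 ± 1.29 on the log2 scale, edgeR adjusted p = 0.255. The call of GNGT1 on LN523 between days 2 and 22 did not pass without LN523 day 2 replicate 3 (log2 fold change -2.25, edgeR adjusted p = 0.15) or without LN523 day 22 replicate 3 (log2 fold change -3.09, edgeR adjusted p = 0.0639). The call of GNGT1 on LN521 between days 2 and 22 did not pass without LN521 day 22 replicate 1 (log2 fold change -3.13, edgeR adjusted p = 0.053) or without LN521 day 22 replicate 3 (log2 fold change -2.98, edgeR adjusted p = 0.0637). The call of GNGT2 on LN323 between days 2 and 22 did not pass without LN323 day 22 replicate 2 (log2 fold change -4.02, edgeR adjusted p = 0.0724) or without LN323 day 22 replicate 3 (log2 fold change -3.77, edgeR adjusted p = 0.101).

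GNAT1, the alpha subunit of rod transducin, was near the limit of detection. On LN523, GNAT1 had 10, 0 and 6 counts at day 2, 14, 8 and 4 counts at day 22, and 0, 5 and 4 counts at day 32. On LN323, GNAT1 had 2, 11 and 2 counts at day 2, 2, 0 and 2 counts at day 22, and 2, 2 and 0 counts at day 32. On LN521, GNAT1 had 22, 14 and 18 counts at day 2, 4, 6 and 6 counts at day 22, and 44, 2 and 2 counts at day 32. Its only group past the minimum was LN521 at day 2, and the single highest value, 44 counts, was in LN521 replicate 1 at day 32, where the other replicates had 2 counts each.

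The phosphodiesterase genes split by subunit. PDE6B, a catalytic subunit of the rod enzyme (gene coordinates in GRCh38 from GENCODE 44, here and below, chr4:625573-670782, plus strand), was at 5.02 TPM or more in every library and rose on each matrix. On LN523, PDE6B had 6.11, 6.23 and 8.2 TPM at day 2, 41.0, 20.9 and 51.5 TPM at day 22, and 40.8, 15.3 and 41.0 TPM at day 32. On LN323, PDE6B had 5.02, 8.28 and 5.24 TPM at day 2, 37.1, 29.9 and 45.3 TPM at day 22, and 47.1, 15.0 and 35.0 TPM at day 32. On LN521, PDE6B had 11.1, 10.9 and 16.9 TPM at day 2, 20.3, 30.2 and 35.7 TPM at day 22, and 12.2, 21.6 and 33.1 TPM at day 32. The groups of days 2 and 22 did not overlap on any matrix. On the log2 scale the rise by day 22 was 2.10 ± 0.33 on LN523 (edgeR adjusted p = 1.54e-06), 2.19 ± 0.34 on LN323 (edgeR adjusted p = 6.41e-07), and 1.15 ± 0.32 on LN521 (edgeR adjusted p = 0.00629). The call of PDE6B on LN521 between days 2 and 22 did not pass without LN521 day 2 replicate 1 (log2 fold change 1.01, edgeR adjusted p = 0.07) or without LN521 day 22 replicate 2 (log2 fold change 0.94, edgeR adjusted p = 0.0605). Its catalytic partner PDE6A stayed at 0 to 13 counts, and the cone subunit PDE6C at 0 to 16 counts. Of the exonic length of PDE6B, 13.9% lies opposite an antisense gene.

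PDE6G, the inhibitory subunit of the rod enzyme (chr17:81650459-81663112, minus strand), moved the other way. On LN523, PDE6G had 6.36, 8.44 and 9.21 TPM at day 2, 0.492, 0.257 and 0.578 TPM at day 22, and 0.106, 0.95 and 0.231 TPM at day 32. On LN323, PDE6G had 6.18, 7.93 and 9.01 TPM at day 2, 0, 0.178 and 0.344 TPM at day 22, and 0.739, 0.505 and 0.127 TPM at day 32. On LN521, PDE6G had 5.18, 9.63 and 5.52 TPM at day 2, 1.09, 1.49 and 0.142 TPM at day 22, and 4.71, 0.609 and 1.5 TPM at day 32. Every day 22 library was below every day 2 library. PDE6G fell by 4.44 ± 0.79 on the log2 scale on LN523 (edgeR adjusted p = 1.34e-05), fell by 5.60 ± 0.86 on LN323 (edgeR adjusted p = 6.82e-07), and fell by 2.94 ± 0.73 on LN521 (edgeR adjusted p = 0.00184). At day 32 the highest library was LN521 replicate 1.

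PDE6H, the inhibitory subunit of the cone enzyme, was at 0 counts in every day 2 library. On LN523, PDE6H had 0, 0 and 0 counts at day 2, 0, 0 and 0 counts at day 22, and 25, 14 and 2 counts at day 32. On LN323, PDE6H had 0, 0 and 0 counts at day 2, 2, 8 and 2 counts at day 22, and 12, 12 and 14 counts at day 32. On LN521, PDE6H had 0, 0 and 0 counts at day 2, 0, 2 and 10 counts at day 22, and 34, 10 and 14 counts at day 32. All 9 day 32 libraries had at least 2 counts. Against a floor of 3 counts over the group, the day 32 level was at least 11.5-fold higher than at day 2 on LN523, at least 13.8-fold on LN323, and at least 20.2-fold on LN521. The rise by day 22 on LN323 was called (edgeR adjusted p = 0.0487) on 12 counts over 3 libraries against 0. The call of PDE6H on LN323 between days 2 and 22 did not pass without LN323 day 2 replicate 1 (log2 fold change 4.99, edgeR adjusted p = 0.142), without LN323 day 2 replicate 2 (log2 fold change 5.07, edgeR adjusted p = 0.122), without LN323 day 2 replicate 3 (log2 fold change 5.07, edgeR adjusted p = 0.12), without LN323 day 22 replicate 1 (log2 fold change 5.34, edgeR adjusted p = 0.0531), or without LN323 day 22 replicate 2 (log2 fold change 4.16, edgeR adjusted p = 0.151). Nor did PDE6H pass with DESeq2 (log2 fold change 4.36, DESeq2 adjusted p = 0.0548), with RLE scaling (log2 fold change 5.03, edgeR adjusted p = 0.0508), or in a fit of the 2 groups alone (log2 fold change 4.86, edgeR adjusted p = 0.459).

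**Figure D3:**
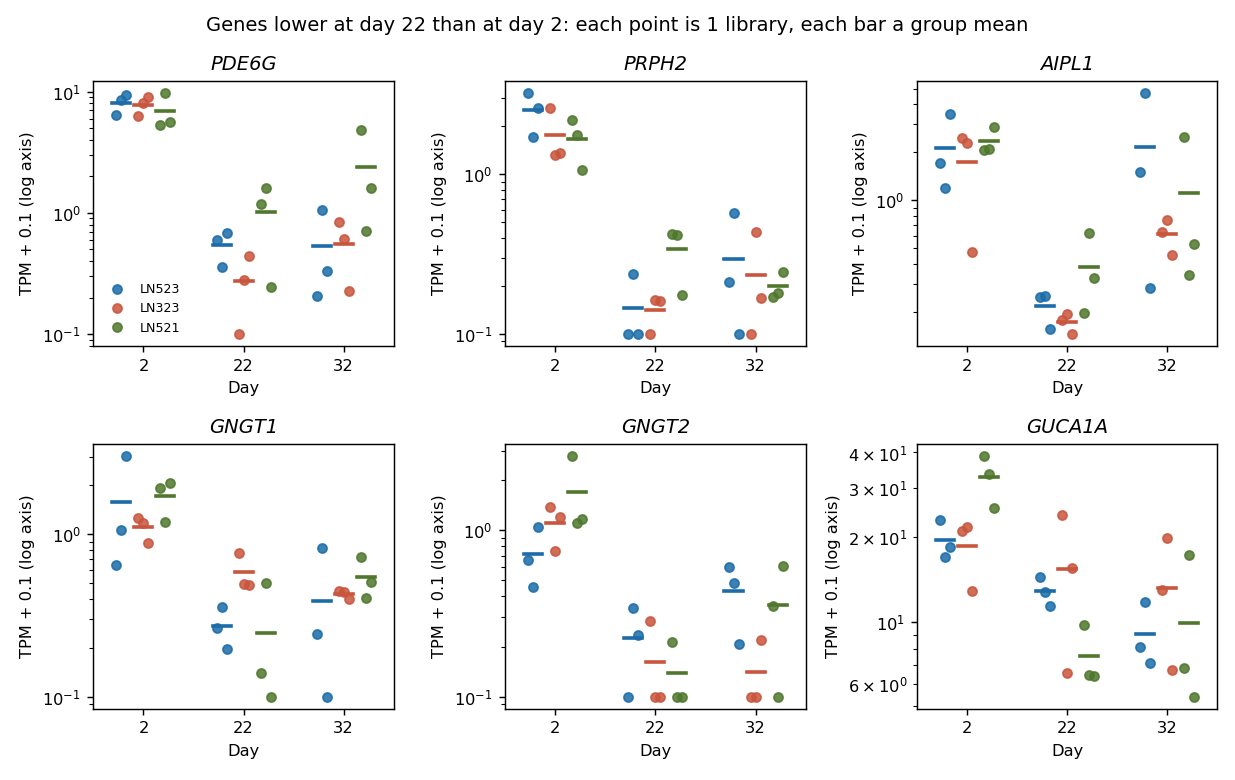
TPM + 0.1 on a log axis by day for 6 genes that fell by day 22 on at least 1 matrix. Each point is 1 library, each bar the mean of 3 libraries, and the colour gives the matrix. The day 2 points of PDE6G, between 5.18 and 9.63 TPM, lie above all of its day 22 points.

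Among the channel genes, the cone subunits CNGA3 and CNGB3 started late. On LN523, CNGA3 had 0, 0 and 2 counts at day 2, 0, 4 and 6 counts at day 22, and 76, 68 and 22 counts at day 32. On LN323, CNGA3 had 0, 4 and 0 counts at day 2, 2, 8 and 0 counts at day 22, and 8, 26 and 22 counts at day 32. On LN521, CNGA3 had 0, 8 and 0 counts at day 2, 8, 0 and 0 counts at day 22, and 126, 8 and 16 counts at day 32. CNGA3 was at 8 counts or fewer in all 18 libraries of days 2 and 22, and 7 of 9 day 32 libraries had more. It was not called between days 22 and 32, with log2 fold changes of 3.58 ± 1.28 on LN523 (edgeR adjusted p = 0.536), 2.71 ± 1.24 on LN323 (edgeR adjusted p = 1), and 4.29 ± 1.28 on LN521 (edgeR adjusted p = 0.199).

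CNGB3 was seen earlier. On LN523, CNGB3 had 0, 0 and 0 counts at day 2, 6, 30 and 6 counts at day 22, and 30, 10 and 4 counts at day 32. On LN323, CNGB3 had 0, 0 and 0 counts at day 2, 22, 24 and 26 counts at day 22, and 17, 20 and 28 counts at day 32. On LN521, CNGB3 had 6, 2 and 0 counts at day 2, 4, 6 and 20 counts at day 22, and 2, 6 and 50 counts at day 32. Day 2 libraries of LN523 and LN323 were all at 0, and the day 22 level was at least 12.8-fold higher on LN523 and at least 27.2-fold higher on LN323, against a floor of 3 counts over the group. Both rises were called (edgeR adjusted p = 0.00254 and 0.000351). The call on LN523 did not pass in a fit of the 2 groups alone (log2 fold change 6.53, edgeR adjusted p = 0.0514). At day 32 LN521 replicate 3 alone had 50 counts. Of the exonic length of CNGB3, 9.46% is shared with a pseudogene on the same strand.

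CNGA1, the alpha subunit of the rod channel, differed widely between replicates at days 22 and 32. On LN523, CNGA1 had 1.64, 0.696 and 2.02 TPM at day 2, 0.109, 3.18 and 1.34 TPM at day 22, and 0.047, 4.98 and 0.485 TPM at day 32. On LN323, CNGA1 had 1.22, 1.4 and 0.833 TPM at day 2, 0.264, 2.23 and 1.37 TPM at day 22, and 0.327, 3.63 and 2.08 TPM at day 32. On LN521, CNGA1 had 2.82, 2.62 and 4.51 TPM at day 2, 1.21, 0.396 and 0.441 TPM at day 22, and 3.08, 3.2 and 0.423 TPM at day 32. On LN523 at day 32 its replicates differed from 0.047 to 4.98 TPM, and no contrast between days called it. CNGB1, the beta subunit of the rod channel, was called at day 22 on LN523 on counts of 10, 10, and 0 against 0 in each day 2 library. Against the floor of 3 counts over the group this was at least 6.08-fold. CNGB1 had 2 to 110 counts at day 32. The call of CNGB1 on LN523 between days 2 and 22 did not pass without LN523 day 2 replicate 1 (log2 fold change 5.05, edgeR adjusted p = 0.201), without LN523 day 2 replicate 2 (log2 fold change 5.52, edgeR adjusted p = 0.136), without LN523 day 2 replicate 3 (log2 fold change 5.98, edgeR adjusted p = 0.0559), without LN523 day 22 replicate 1 (log2 fold change 5.60, edgeR adjusted p = 0.0561), or without LN523 day 22 replicate 2 (log2 fold change 5.15, edgeR adjusted p = 0.0676). Nor did CNGB1 pass with DESeq2 (log2 fold change 4.11, DESeq2 adjusted p = 0.0743), with edgeR's filterByExpr (log2 fold change 5.59, edgeR adjusted p = 0.0803), without lane as a replicate block (log2 fold change 5.64, edgeR adjusted p = 0.0504), or in a fit of the 2 groups alone (log2 fold change 5.48, edgeR adjusted p = 0.343). SLC24A1, the sodium, potassium, and calcium exchanger of rods, was detected in every group. On LN523, SLC24A1 had 5.77, 3.43 and 5.11 TPM at day 2, 7.49, 11.6 and 9.81 TPM at day 22, and 7.73, 9.22 and 9.74 TPM at day 32. On LN323, SLC24A1 had 4.37, 5.47 and 3.92 TPM at day 2, 7.71, 10.9 and 9.93 TPM at day 22, and 10.5, 10.2 and 10.6 TPM at day 32. On LN521, SLC24A1 had 5.77, 5.8 and 5.04 TPM at day 2, 7.25, 9.82 and 8.27 TPM at day 22, and 5.56, 7.3 and 10.1 TPM at day 32. Every day 22 library was above every day 2 library, but SLC24A1 was not called on any matrix, with 0.71 ± 0.27 on the log2 scale on LN323, edgeR adjusted p = 0.0551.

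The guanylate cyclase activators GUCA1A and GUCA1B, calcium sensors that lie next to each other on chromosome 6, were called in opposite directions on different matrices. On LN523, GUCA1A had 23.0, 16.9 and 18.4 TPM at day 2, 14.4, 12.7 and 11.2 TPM at day 22, and 8.05, 11.7 and 7.03 TPM at day 32. On LN323, GUCA1A had 20.9, 21.6 and 12.8 TPM at day 2, 23.9, 6.49 and 15.4 TPM at day 22, and 12.9, 19.8 and 6.63 TPM at day 32. On LN521, GUCA1A had 38.8, 33.4 and 25.4 TPM at day 2, 9.68, 6.38 and 6.3 TPM at day 22, and 6.77, 17.2 and 5.31 TPM at day 32. GUCA1A was highest in the LN521 libraries of day 2 and fell there by day 22 (-2.14 ± 0.39 on the log2 scale, edgeR adjusted p = 2.36e-05), with no overlap between the groups. On LN523 the difference was -0.93 ± 0.38 on the log2 scale, edgeR adjusted p = 0.0736, and on LN323 it was -0.55 ± 0.38 on the log2 scale, edgeR adjusted p = 0.376. For GUCA1B, values at day 2 were low on LN523. On LN523, GUCA1B had 0.773, 1.43 and 0.481 TPM at day 2, 12.8, 2.37 and 5.04 TPM at day 22, and 9.75, 12.2 and 3.61 TPM at day 32. On LN323, GUCA1B had 0.824, 3.76 and 2.77 TPM at day 2, 4.53, 3.12 and 7.83 TPM at day 22, and 7.47, 5.66 and 3.35 TPM at day 32. On LN521, GUCA1B had 3.52, 3.15 and 6.4 TPM at day 2, 8.45, 3.82 and 4.96 TPM at day 22, and 8.02, 3.79 and 4.08 TPM at day 32. GUCA1B rose by day 22 on LN523 (2.46 ± 0.69 on the log2 scale, edgeR adjusted p = 0.00511), and the differences on LN323 (0.72 ± 0.63 on the log2 scale, edgeR adjusted p = 0.548) and LN521 (0.27 ± 0.62 on the log2 scale, edgeR adjusted p = 0.899) were not called. The call of GUCA1B on LN523 between days 2 and 22 did not pass without LN523 day 22 replicate 1 (log2 fold change 1.83, edgeR adjusted p = 0.0726).

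Of the cyclases themselves, GUCY2D had 0.0493 to 2.31 TPM over the 27 libraries, with 25.8% of its exonic length opposite another gene, and GUCY2F had 0 to 26 counts. RD3, which controls trafficking and activity of the cyclase, had 52, 46 and 62 counts on LN523 at day 32, 6, 42 and 16 on LN323, and 18, 16 and 38 on LN521, and its rise by day 22 was called on LN521 alone (3.55 ± 0.95 on the log2 scale, edgeR adjusted p = 0.00399). These 3 genes and others named with values outside the rule for named genes were chosen after their values were seen.

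OPN1SW, the short wavelength opsin of cones and the only opsin described here (chr7:128772485-128775794, minus strand), was detected in every group. On LN523, OPN1SW had 3.85, 4.18 and 2.93 TPM at day 2, 17.1, 7.5 and 6.58 TPM at day 22, and 7.99, 9.41 and 5.92 TPM at day 32. On LN323, OPN1SW had 4.74, 2.82 and 4.00 TPM at day 2, 10.3, 5.82 and 5.05 TPM at day 22, and 6.51, 5.84 and 5.98 TPM at day 32. On LN521, OPN1SW had 7.26, 4.15 and 7.54 TPM at day 2, 9.37, 9.22 and 6.48 TPM at day 22, and 10.8, 8.47 and 7.3 TPM at day 32. It was at 2.82 to 7.54 TPM in undifferentiated cells and at 5.05 to 17.1 TPM afterwards. On LN523 and LN323 the groups of days 2 and 22 did not overlap, but OPN1SW was not called between days (1.11 ± 0.49 on the log2 scale on LN523 by day 22, edgeR adjusted p = 0.112). OPN1SW lies opposite CALU, a widely expressed gene, over 15.8% of its exonic length, and how many of its reads came from CALU was not tested.

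Of the 8 genes that end the response or restore the dark state, RGS9 and RGS16 were detected in all groups. RGS9 is the GTPase activating protein of transducin in photoreceptors, and RGS16 is another RGS protein, which is widely expressed. On LN523, RGS9 had 1.6, 2.85 and 1.9 TPM at day 2, 15.3, 1.61 and 7.18 TPM at day 22, and 13.6, 4.51 and 3.19 TPM at day 32. On LN323, RGS9 had 1.71, 1.89 and 2.04 TPM at day 2, 9.71, 1.23 and 5.55 TPM at day 22, and 5.88, 7.25 and 1.65 TPM at day 32. On LN521, RGS9 had 2.72, 1.86 and 3.58 TPM at day 2, 4.64, 1.03 and 10.5 TPM at day 22, and 4.96, 7.86 and 7.2 TPM at day 32. Within groups of days 22 and 32 RGS9 varied up to several fold, from 1.61 to 15.3 TPM on LN523 at day 22, and it was not called. Replicate 2 was the lowest library for RGS9 at day 22 on each matrix, with 1.61, 1.23, and 1.03 TPM. For RGS16 the libraries were as follows. On LN523, RGS16 had 15.2, 19.3 and 12.7 TPM at day 2, 31.5, 6.69 and 31.6 TPM at day 22, and 48.8, 30.6 and 21.4 TPM at day 32. On LN323, RGS16 had 23.2, 16.6 and 25.4 TPM at day 2, 31.7, 7.03 and 31.6 TPM at day 22, and 28.9, 16.1 and 12.7 TPM at day 32. On LN521, RGS16 had 14.7, 19.2 and 14.8 TPM at day 2, 39.5, 24.7 and 31.7 TPM at day 22, and 45.0, 33.8 and 17.9 TPM at day 32. LN523 and LN323 replicate 2 at day 22 were both low, at 6.69 and 7.03 TPM, and RGS16 was not called between days.

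ARR3, the arrestin of cones, was at low levels from the start in part of the libraries. On LN523, ARR3 had 0, 8 and 18 counts at day 2, 42, 22 and 12 counts at day 22, and 35, 16 and 25 counts at day 32. On LN323, ARR3 had 5, 2 and 2 counts at day 2, 12, 8 and 3 counts at day 22, and 21, 29 and 8 counts at day 32. On LN521, ARR3 had 39, 12 and 2 counts at day 2, 16, 5 and 18 counts at day 22, and 16, 11 and 10 counts at day 32. It was detected on LN523 from day 22, and 16.3% of its exonic length lies opposite PDZD11. Its rod counterpart SAG had at most 4 counts, as given above. The opsin kinase GRK1 of rods had its highest counts on LN521 at day 2. On LN523, GRK1 had 15, 17 and 0 counts at day 2, 8, 10 and 0 counts at day 22, and 0, 0 and 8 counts at day 32. On LN323, GRK1 had 2, 14 and 6 counts at day 2, 2, 10 and 4 counts at day 22, and 0, 2 and 4 counts at day 32. On LN521, GRK1 had 30, 22 and 14 counts at day 2, 4, 6 and 2 counts at day 22, and 4, 0 and 8 counts at day 32. GRK7, the kinase of cones, had 0 to 6 counts in all libraries.

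Recoverin (RCVRN), a calcium sensor that restrains the opsin kinase and is among the first proteins of photoreceptor precursors, was at 0 counts in 8 of 9 day 2 libraries. On LN523, RCVRN had 0, 0 and 0 counts at day 2, 8, 9 and 0 counts at day 22, and 210, 94 and 8 counts at day 32. On LN323, RCVRN had 0, 0 and 2 counts at day 2, 2, 8 and 0 counts at day 22, and 8, 4 and 8 counts at day 32. On LN521, RCVRN had 0, 0 and 0 counts at day 2, 2, 12 and 0 counts at day 22, and 86, 32 and 6 counts at day 32. It missed detection on LN523 and LN521 at day 32 through replicate 3 alone, which had 8 and 6 counts. Against a floor of 3 counts over the group, the day 32 level was at least 87.3-fold higher than at day 2 on LN523. On LN521 it was at least 43.3-fold higher. All day 2 libraries of these matrices were at 0. Rises by day 22 were called on LN523 (edgeR adjusted p = 0.0304) and LN521 (edgeR adjusted p = 0.0403) on 17 and 14 counts against 0, although 1 library of each stayed at 0. The call of RCVRN on LN523 between days 2 and 22 did not pass without LN523 day 2 replicate 1 (log2 fold change 5.04, edgeR adjusted p = 0.147), without LN523 day 2 replicate 2 (log2 fold change 5.08, edgeR adjusted p = 0.131), without LN523 day 22 replicate 1 (log2 fold change 5.19, edgeR adjusted p = 0.0542), or without LN523 day 22 replicate 2 (log2 fold change 5.03, edgeR adjusted p = 0.051). Nor did RCVRN pass with DESeq2 (log2 fold change 4.02, DESeq2 adjusted p = 0.0605), with edgeR's filterByExpr (log2 fold change 5.33, edgeR adjusted p = 0.0559), or in a fit of the 2 groups alone (log2 fold change 5.23, edgeR adjusted p = 0.407). The call of RCVRN on LN521 between days 2 and 22 did not pass without LN521 day 2 replicate 1 (log2 fold change 4.73, edgeR adjusted p = 0.158), without LN521 day 2 replicate 2 (log2 fold change 4.59, edgeR adjusted p = 0.193), without LN521 day 2 replicate 3 (log2 fold change 5.42, edgeR adjusted p = 0.071), or without LN521 day 22 replicate 2 (log2 fold change 3.06, edgeR adjusted p = 0.385). Nor did RCVRN pass with DESeq2 (log2 fold change 3.93, DESeq2 adjusted p = 0.0754), with edgeR's filterByExpr (log2 fold change 4.96, edgeR adjusted p = 0.0699), or in a fit of the 2 groups alone (log2 fold change 4.63, edgeR adjusted p = 0.514). The difference between day 22 and day 32 was not called on LN523 (4.01 ± 1.08 on the log2 scale, edgeR adjusted p = 0.103) or LN521 (3.25 ± 1.08 on the log2 scale, edgeR adjusted p = 0.345).

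Phosducin (PDC), which binds the beta and gamma subunits of transducin (chr1:186443566-186461114, minus strand), came on between days 22 and 32. On LN523, PDC had 0, 0 and 0 counts at day 2, 2, 0 and 0 counts at day 22, and 192, 178 and 0 counts at day 32. On LN323, PDC had 2, 0 and 0 counts at day 2, 0, 0 and 2 counts at day 22, and 17, 18 and 2 counts at day 32. On LN521, PDC had 1, 0 and 0 counts at day 2, 2, 0 and 0 counts at day 22, and 57, 62 and 26 counts at day 32. In all 18 libraries of days 2 and 22 PDC had at most 2 counts. It rose by day 32 on LN523 (7.04 ± 1.34 on the log2 scale, edgeR adjusted p = 0.0028), where replicate 3 stayed at 0 counts, and on LN521 (6.58 ± 1.32 on the log2 scale, edgeR adjusted p = 0.00783), where each day 32 library was above those of day 22. The call of PDC on LN521 between days 22 and 32 did not pass without LN521 day 22 replicate 2 (log2 fold change 5.95, edgeR adjusted p = 0.125). On LN323, with 17, 18, and 2 counts at day 32, the difference was 3.37 ± 1.33 on the log2 scale, edgeR adjusted p = 1.

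**Figure D4:**
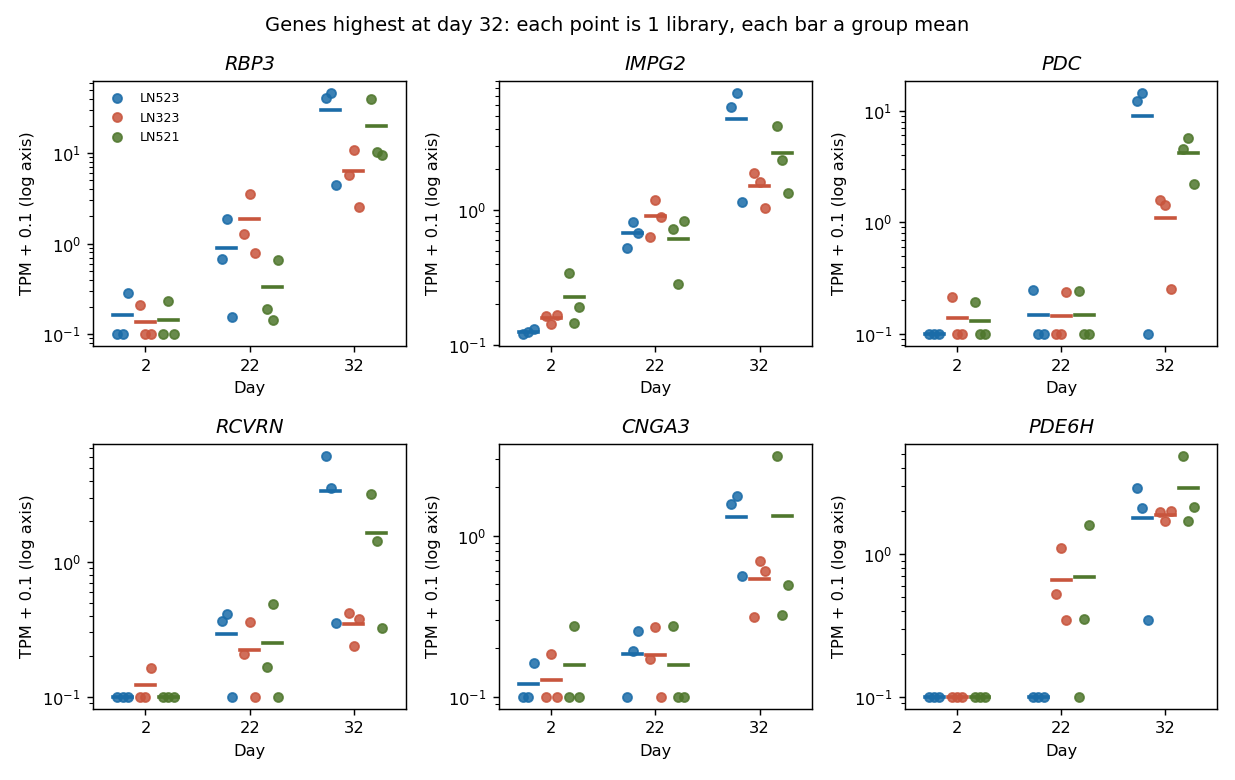
TPM + 0.1 on a log axis by day for 6 genes with their highest values at day 32. Each point is 1 library, each bar the mean of 3 libraries, and the colour gives the matrix. On LN523 at day 32 the third library lies at 4.34 TPM for RBP3 and at 0 TPM for PDC, below the other replicates.

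The matrix around photoreceptors held 2 of the 4 genes that rose on LN523 between days 22 and 32. RBP3, the interphotoreceptor retinol binding protein, which carries retinoids between photoreceptors and pigment epithelium, lies at chr10:47348363-47357881, plus strand. On LN523, RBP3 had 0, 0 and 0.188 TPM at day 2, 0.57, 1.76 and 0.0535 TPM at day 22, and 40.4, 46.0 and 4.34 TPM at day 32. On LN323, RBP3 had 0.107, 0 and 0 TPM at day 2, 1.18, 3.42 and 0.68 TPM at day 22, and 5.58, 10.6 and 2.45 TPM at day 32. On LN521, RBP3 had 0, 0.133 and 0 TPM at day 2, 0.0898, 0.0442 and 0.553 TPM at day 22, and 39.9, 10.1 and 9.56 TPM at day 32. RBP3 rose on LN523 (5.38 ± 0.82 on the log2 scale, edgeR adjusted p = 0.00011) and LN521 (6.07 ± 0.90 on the log2 scale, edgeR adjusted p = 8.09e-05), with every day 32 library above every day 22 library. On LN323 the libraries of days 22 and 32 overlapped and the difference was 1.81 ± 0.71 on the log2 scale, edgeR adjusted p = 1. Before this, RBP3 had risen by day 22 on LN323 (4.95 ± 1.00 on the log2 scale, edgeR adjusted p = 9.27e-05) and LN523 (3.15 ± 1.05 on the log2 scale, edgeR adjusted p = 0.0216), while on LN521 the difference was 2.69 ± 1.12 on the log2 scale, edgeR adjusted p = 0.0914. On LN523 the libraries of days 2 and 22 overlapped. The call of RBP3 on LN523 between days 2 and 22 did not pass without LN523 day 2 replicate 1 (log2 fold change 2.24, edgeR adjusted p = 0.213), without LN523 day 2 replicate 2 (log2 fold change 2.13, edgeR adjusted p = 0.247), or without LN523 day 22 replicate 2 (log2 fold change 2.31, edgeR adjusted p = 0.125). Nor did RBP3 pass with DESeq2 (log2 fold change 2.45, DESeq2 adjusted p = 0.211), with edgeR's filterByExpr (log2 fold change 3.14, edgeR adjusted p = 0.088), or in a fit of the 2 groups alone (log2 fold change 3.69, edgeR adjusted p = 0.126).

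IMPG2, a proteoglycan of the same matrix (chr3:101222546-101320575, minus strand), rose by day 22 on each coating. On LN523, IMPG2 had 0.0207, 0.0239 and 0.0321 TPM at day 2, 0.421, 0.719 and 0.576 TPM at day 22, and 5.69, 7.24 and 1.04 TPM at day 32. On LN323, IMPG2 had 0.0641, 0.0437 and 0.0671 TPM at day 2, 0.529, 1.08 and 0.784 TPM at day 22, and 1.77, 1.51 and 0.943 TPM at day 32. On LN521, IMPG2 had 0.242, 0.0454 and 0.0911 TPM at day 2, 0.622, 0.181 and 0.73 TPM at day 22, and 4.11, 2.25 and 1.25 TPM at day 32. By day 22 it had risen on LN523 (4.17 ± 0.74 on the log2 scale, edgeR adjusted p = 1.06e-05), LN323 (3.45 ± 0.65 on the log2 scale, edgeR adjusted p = 3.26e-05), and LN521 (2.11 ± 0.61 on the log2 scale, edgeR adjusted p = 0.00858). From day 22 to day 32 the rise was called on LN523 (3.00 ± 0.59 on the log2 scale, edgeR adjusted p = 0.00358) and not on LN323 (0.71 ± 0.55 on the log2 scale, edgeR adjusted p = 1) or LN521 (2.21 ± 0.58 on the log2 scale, edgeR adjusted p = 0.0879), although every LN521 library of day 32 was above those of day 22. IMPG1 stayed at 0 to 0.794 TPM, with a call at day 22 on LN523 (3.43 ± 1.23 on the log2 scale, edgeR adjusted p = 0.0366), and EYS, a large protein of the same space, at 0.0382 to 1.16 TPM. The call of IMPG2 on LN521 between days 2 and 22 did not pass without LN521 day 2 replicate 2 (log2 fold change 1.70, edgeR adjusted p = 0.0909) or without LN521 day 22 replicate 3 (log2 fold change 1.54, edgeR adjusted p = 0.113). The call of IMPG2 on LN523 between days 22 and 32 did not pass without LN523 day 22 replicate 1 (log2 fold change 2.68, edgeR adjusted p = 0.108) or without LN523 day 32 replicate 2 (log2 fold change 2.33, edgeR adjusted p = 0.109). The call of IMPG1 on LN523 between days 2 and 22 did not pass without LN523 day 2 replicate 2 (log2 fold change 3.05, edgeR adjusted p = 0.137), without LN523 day 2 replicate 3 (log2 fold change 3.12, edgeR adjusted p = 0.115), or without LN523 day 22 replicate 1 (log2 fold change 3.46, edgeR adjusted p = 0.0798). Nor did IMPG1 pass without lane as a replicate block (log2 fold change 3.17, edgeR adjusted p = 0.0767) or in a fit of the 2 groups alone (log2 fold change 3.87, edgeR adjusted p = 0.119).

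Genes of the outer segment disc had no common course. ABCA4, the retinoid flippase of disc membranes, rose by 5.38 ± 0.65, 5.60 ± 0.66, and 5.35 ± 0.63 on the log2 scale by day 22 on LN523, LN323, and LN521 (edgeR adjusted p = 2.32e-09, 1.2e-09, and 1.86e-09). It stood at 0 to 0.219 TPM at day 2, 3.09 to 7.56 TPM at day 22, and 2.68 to 6.66 TPM at day 32, so the day 2 libraries lay below all later ones. PRPH2, the tetraspanin that shapes the disc rim (chr6:42696598-42722597, minus strand), went from 0.957 to 3.12 TPM at day 2 to 0 to 0.323 TPM at day 22, and fell by 6.26 ± 1.10 on LN523 (edgeR adjusted p = 9.62e-06), fell by 5.51 ± 1.08 on LN323 (edgeR adjusted p = 5.55e-05), and fell by 2.76 ± 0.89 on LN521 (edgeR adjusted p = 0.0196) on the log2 scale. The call of PRPH2 on LN521 between days 2 and 22 did not pass without LN521 day 2 replicate 1 (log2 fold change -2.48, edgeR adjusted p = 0.0965), without LN521 day 22 replicate 2 (log2 fold change -2.67, edgeR adjusted p = 0.0883), or without LN521 day 22 replicate 3 (log2 fold change -2.40, edgeR adjusted p = 0.112). Its partner ROM1 ranged from 0.639 to 1.67 TPM at day 2 and from 2.02 to 5.24 TPM at day 22, without overlap, but was not called (1.12 ± 0.49 on the log2 scale on LN323, edgeR adjusted p = 0.101), and 30.1% of its exonic length lies opposite EML3. PRCD ranged from 0.211 to 2.65 TPM. RP1, a microtubule associated protein of the axoneme, had 0 to 23 counts.

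CRB1, an apical polarity protein of retinal progenitors, Muller glia, and photoreceptors (chr1:197268204-197478455, plus strand), had the largest change of the 42 genes. On LN523, CRB1 had 0.142, 0.172 and 0.147 TPM at day 2, 39.7, 31.8 and 127 TPM at day 22, and 152, 71.8 and 159 TPM at day 32. On LN323, CRB1 had 0.348, 0.0572 and 0.147 TPM at day 2, 89.2, 73.8 and 120.4 TPM at day 22, and 160.0, 49.5 and 156 TPM at day 32. On LN521, CRB1 had 0.218, 0.179 and 0.298 TPM at day 2, 17.9, 36.2 and 72.2 TPM at day 22, and 19.8, 49.9 and 132 TPM at day 32. The groups of days 2 and 22 were far apart on each matrix, with rises on the log2 scale of 8.16 ± 0.51 on LN523 (edgeR adjusted p = 1.55e-18), 8.60 ± 0.51 on LN323 (edgeR adjusted p = 1.93e-19), and 7.43 ± 0.49 on LN521 (edgeR adjusted p = 1.37e-17). From day 22 to day 32 the groups overlapped on each matrix and CRB1 was not called. In the 3 LN521 libraries of day 22 the lowest value, 17.9 TPM, was in replicate 1, the library with 108.4 TPM of POU5F1.

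UNC119, a lipid binding trafficking protein that is also widely expressed outside the retina, was second to CRB1 in mean level over the day 32 libraries. On LN523, UNC119 had 41.8, 42.9 and 44.5 TPM at day 2, 68.5, 64.0 and 60.5 TPM at day 22, and 75.5, 76.3 and 65.4 TPM at day 32. On LN323, UNC119 had 46.1, 46.1 and 39.2 TPM at day 2, 59.7, 56.3 and 68.2 TPM at day 22, and 67.3, 77.3 and 62.4 TPM at day 32. On LN521, UNC119 had 50.5, 46.5 and 56.2 TPM at day 2, 83.2, 82.6 and 76.5 TPM at day 22, and 79.0, 74.3 and 70.7 TPM at day 32. In deposited TPM, every day 22 library of UNC119 was above every day 2 library. The fold changes, which are TMM scaled, were smaller than this rise on LN523 and LN323, and the reason was not tested. UNC119 rose by day 22 on LN521 (0.63 ± 0.19 on the log2 scale, edgeR adjusted p = 0.0117) and was not called on LN523 (0.26 ± 0.19 on the log2 scale, edgeR adjusted p = 0.434) or LN323 (0.15 ± 0.19 on the log2 scale, edgeR adjusted p = 0.717). The call of UNC119 on LN521 between days 2 and 22 did not pass without LN521 day 2 replicate 1 (log2 fold change 0.54, edgeR adjusted p = 0.0759) or without LN521 day 2 replicate 2 (log2 fold change 0.55, edgeR adjusted p = 0.0829). TULP1, which acts in transport to the outer segment, was detected from day 2. On LN523, TULP1 had 7.74, 8.19 and 8.45 TPM at day 2, 17.9, 4.46 and 6.5 TPM at day 22, and 10.0, 14.6 and 1.51 TPM at day 32. On LN323, TULP1 had 9.74, 11.2 and 6.24 TPM at day 2, 13.8, 2.66 and 7.98 TPM at day 22, and 11.9, 6.83 and 2.79 TPM at day 32. On LN521, TULP1 had 9.48, 9.51 and 12.2 TPM at day 2, 14.6, 7.25 and 16.6 TPM at day 22, and 10.9, 8.68 and 7.5 TPM at day 32. Its groups of days 2 and 22 overlapped on each matrix, with replicate 2 the lowest library of day 22 on each, and TULP1 was not called.

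AIPL1, the chaperone that phosphodiesterase needs to fold, was the only one of the 42 genes to be called down and then up again on the same matrix. On LN523 it had 1.6, 1.1 and 3.36 TPM at day 2, 0.147, 0.153 and 0.0574 TPM at day 22, and 1.39, 4.58 and 0.183 TPM at day 32. It fell by 4.60 ± 0.88 by day 22 (edgeR adjusted p = 4.15e-05) and rose by 3.96 ± 0.86 by day 32 (edgeR adjusted p = 0.0127) on the log2 scale. By day 22 it fell by 4.65 ± 0.91 on LN323 and fell by 3.19 ± 0.80 on LN521 (edgeR adjusted p = 5.37e-05 and 0.00206), and the later differences were 2.74 ± 0.89 and 1.80 ± 0.80 on the log2 scale and were not called. The call of AIPL1 on LN523 between days 22 and 32 did not pass without LN523 day 22 replicate 1 (log2 fold change 4.07, edgeR adjusted p = 0.108), without LN523 day 22 replicate 3 (log2 fold change 3.82, edgeR adjusted p = 0.0946), or without LN523 day 32 replicate 2 (log2 fold change 2.62, edgeR adjusted p = 0.335). MPP4, a scaffold protein of photoreceptor terminals, had 0 to 18 counts.

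The effect of the matrix was tested within each day on 9 libraries. At day 2, 1 of 40 tested genes was called between LN323 and LN521 (2.5%, beside 2.5% of all genes), and 0 between LN523 and LN323 (beside 0.233%) or between LN523 and LN521 (beside 0.624%). In the comparisons with LN523, 0 and 6 genes had edgeR p-values under 0.05 before adjustment, beside 921 and 3118 of all 38650 genes. DESeq2 called 0 there, beside 1.83% and 1.65% of all genes. The gene called was EYS, at 0.0627, 0.187 and 0.0382 TPM on LN323 and 0.333, 0.327 and 0.612 TPM on LN521 (-2.00 ± 0.60 on the log2 scale, edgeR adjusted p = 0.0382). The groups did not overlap. The call of EYS did not pass without LN323 day 2 replicate 1 (log2 fold change -1.71, edgeR adjusted p = 0.715), without LN323 day 2 replicate 3 (log2 fold change -1.36, edgeR adjusted p = 0.663), without LN521 day 2 replicate 1 (log2 fold change -2.20, edgeR adjusted p = 0.112), without LN521 day 2 replicate 2 (log2 fold change -2.45, edgeR adjusted p = 0.0614), or without LN521 day 2 replicate 3 (log2 fold change -1.41, edgeR adjusted p = 0.409). Nor did EYS pass with DESeq2 (log2 fold change -2.02, DESeq2 adjusted p = 0.105) or with edgeR's filterByExpr (log2 fold change -1.98, edgeR adjusted p = 0.292). At day 22, 1 of 41 genes was called between LN323 and LN521 (2.44%, beside 0.616%), and 0 between LN523 and LN323 (beside 0.013%) or LN523 and LN521 (beside 0.572%). In the comparisons with LN523, 1 and 6 genes had edgeR p-values under 0.05 before adjustment, beside 514 and 1762 of all 38609 genes. DESeq2 called 0 there, beside 1.42% and 1.26% of all genes.

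The gene called at day 22 was CRB1, at 73.8 to 120 TPM on LN323 and 17.9 to 72.2 TPM on LN521 (1.37 ± 0.19 on the log2 scale, edgeR adjusted p = 4.53e-07). The groups did not overlap, but the lowest LN323 library, at 73.8 TPM, lay close to the highest LN521 library, at 72.2 TPM. Without lane as a replicate block the difference was 1.19 on the log2 scale (edgeR adjusted p = 0.898), among genes kept by edgeR's filterByExpr it was 1.38 (edgeR adjusted p = 0.915), in both cases with 0% of all genes called, and without LN323 replicate 1 it was 1.04 (edgeR adjusted p = 0.161). Without LN521 replicate 1, the library with POU5F1, it was 1.01 on the log2 scale (edgeR adjusted p = 9.73e-07). Of the pigment epithelium markers, 2 of 9 (TYRP1 and DCT) were lower on LN323 in the same comparison, with a summed level of 1054 to 2203 TPM on LN323 and 1814 to 2627 TPM on LN521. Of the pluripotent cell markers 5 of 8 were lower on LN323, with summed levels of 104 to 124 and 168 to 669.5 TPM. Of the photoreceptor precursor markers, RXRG and THRB were higher and OTX2 was lower on LN323, 3 of 12, with summed levels of 86.8 to 152 and 70.3 to 119 TPM. ATOH7, 1 of 7 ganglion cell markers, PROX1, of 8 amacrine and horizontal cell markers, and KRT17, of 10 keratinocyte markers, were higher, and TFAP2B, of the 8, was lower. None of the markers of neural retina progenitors, Muller glia, bipolar cells, or lens was called in this comparison. Their part in the difference was not tested.

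At day 32 none of the 42 genes was called between LN523 and LN323 (beside 0% of all genes), between LN523 and LN521 (beside 0.0609%), or between LN323 and LN521 (beside 0.117%). In the same order, 7, 2, and 7 of them had edgeR p-values under 0.05 before adjustment, beside 747, 2034, and 1762 of all 39377 genes. DESeq2 called 6 (14.3%), 1 (2.38%), and 2 genes (4.76%), beside 2.09%, 2.09%, and 2.03% of all genes in the same fit. Of its calls, those of GUCY2F and GRK7 rest on counts of at most 6 in 1 library of each group, and the others are RBP3, IMPG2, RCVRN, and RGS16. A fit of the LN523 and LN323 libraries alone called 6 genes in edgeR, namely RBP3, RCVRN, PDC, IMPG2, GUCY2D, and RGS16 (14.3%), beside 2.82% of all genes in that fit. The median log2 fold change of the 42 genes between LN523 and LN323 was 0.34, with 31 of 42 above 0, beside a median of -0.01 over all genes. Between LN323 and LN521 it was -0.54, with 10 of 42 above 0, beside -0.05 over all genes. Between LN523 and LN521 it was 0.09, beside -0.03. These contrasts share libraries.

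**Figure D5:**
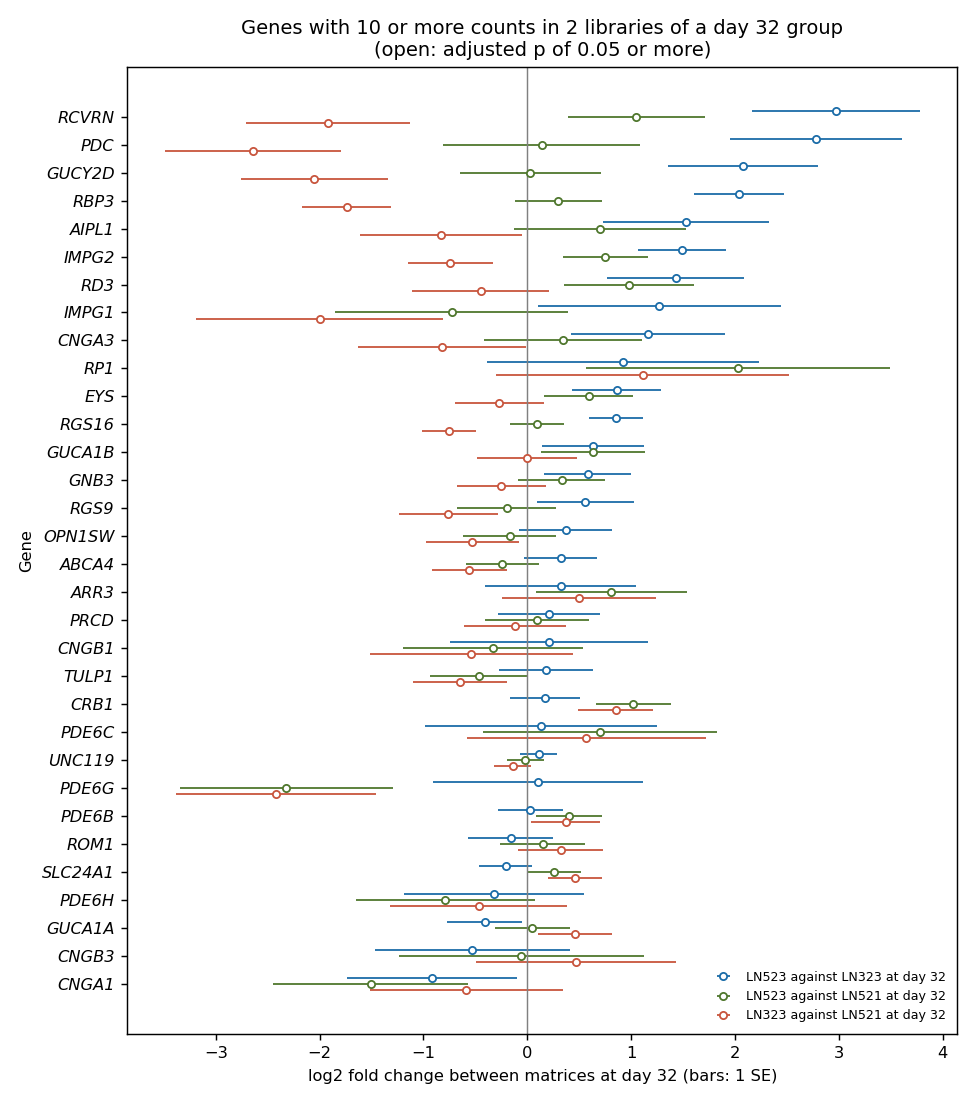
Log2 fold change between matrices at day 32, with 1 standard error as bars, for the 32 genes that had at least 10 counts in at least 2 libraries of a day 32 group. All points are open because none passed the threshold, and the order follows LN523 against LN323, which runs from -0.92 to 2.97.

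GUCY2D is an example of the overlap between groups at day 32. It had 1.92, 2.31 and 0.181 TPM on LN523, 0.116, 0.445 and 0.2 TPM on LN323, and 2.16, 1.31 and 0.375 TPM on LN521, so that replicate 3 of LN523 lay among the LN323 libraries. PDC on LN521 lay above PDC on LN323 in all libraries, with a log2 fold change of -2.64 ± 0.85 for LN323 against LN521 that was not called (edgeR adjusted p = 0.482). Whether the change from day 22 to day 32 differed between matrices was tested on 18 libraries. None of the 42 genes was called for LN523 against LN323 (beside 0%), LN523 against LN521 (beside 0.00236%), or LN323 against LN521 (beside 0%). DESeq2 also called 0, beside 0.161%, 0.208%, and 0.17% of all genes in the same order. Before adjustment, 3, 2, and 1 of the 42 genes had edgeR p-values under 0.05, beside 587, 1810, and 1246 of all 42336 genes. The rises of RBP3, PDC, IMPG2, and AIPL1 on LN523 were therefore not shown to differ from the changes on LN323, where no gene was called.

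Replicates of 1 group differed at day 32. On LN523, 25 of the 42 genes had a mean of at least 1 TPM, and in 17 of them (68%) replicate 3 was the lowest library, beside 36% of the 20257 genes with such a mean. In LN323 the same held for 11 of 19 genes (57.9%, beside 38%), and in LN521 for 12 of 24 (50%, beside 34.9%). The photoreceptor precursor factors had similar orders. CRX stood at 18.1, 23.8 and 3.69 TPM on LN523, 5.47, 6.61 and 1.99 TPM on LN323, and 21.7, 8.89 and 5.49 TPM on LN521. PRDM1, a factor of photoreceptor fate, stood at 22.1, 15.8 and 3.21 TPM, 2.72, 6.09 and 1.69 TPM, and 22.6, 5.75 and 4.38 TPM in the same order. On LN523 replicate 3 was the lowest of the 3 for RBP3, PDC, RCVRN, IMPG2, CRX, and PRDM1 alike, and on LN521 it was replicate 1 that was highest for each of these except PDC. CRB1 and PDE6B had a different order, with LN523 replicate 2 and LN521 replicate 1 lowest. Replicate number and sequencing lane are the same, so lane and culture cannot be told apart.

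Markers of other cell types rose in the same interval. Of 12 photoreceptor precursor markers, a list that includes RCVRN, 4 rose from day 22 to day 32 on LN523 (NEUROD1, NEUROD4, PRDM1, and THRB), 0 on LN323, and 4 on LN521. The summed level at day 32 was 146 to 326 TPM on LN523, 113 to 166 TPM on LN323, and 119.5 to 319 TPM on LN521. Of 7 retinal ganglion cell markers, 4 rose on LN523 (POU4F2, ATOH7, STMN2, and GAP43), 1 on LN323, and 2 on LN521, with summed levels of 553 to 1054, 279 to 456, and 182 to 1018 TPM. Of 6 lens markers 2, 3, and 0 rose, with summed levels of 118 to 192, 84.9 to 938, and 12.5 to 66.8 TPM, and of 10 keratinocyte markers 2, 2, and 3 rose, with 208 to 1184, 409.8 to 1248, and 562 to 1354 TPM. Among 8 amacrine and horizontal cell markers ONECUT1 and ONECUT2 rose on LN523, and among 7 bipolar cell markers, a type that also makes RCVRN and GNB3, VSX1 rose on LN523. Pluripotent cell markers went the other way, with LIN28A, 1 of 8, lower on each matrix and DPPA4 and DNMT3B lower on LN521 as well. None of the markers of neural retina progenitors (8), Muller glia (5), or pigment epithelium (9) was called in this interval. No marker of these lists was at 0 in all day 32 libraries. The part of these cells in the results above was not tested.

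Other genes of the pathway and of photoreceptor structure, a list of 38 of which 37 were in the table, moved in both directions. By day 22, 9 rose and 5 fell on LN523, 9 rose and 7 fell on LN323, and 10 rose and 5 fell on LN521. From day 22 to day 32, CDHR1, a cadherin at the base of the outer segment, rose on LN523 (3.47 ± 0.63 on the log2 scale, edgeR adjusted p = 0.00153), after a fall by day 22 (-3.53 ± 0.65, edgeR adjusted p = 2.31e-05). CERKL, a ceramide kinase like protein of the retina, rose on LN523 (2.53 ± 0.53, edgeR adjusted p = 0.00715) and on LN521 (2.32 ± 0.53, edgeR adjusted p = 0.027). On LN323 none of the 37 was called in this interval. CRX, which is on this list and on that of the precursor markers, had a difference of 2.21 ± 0.58 on LN523 (edgeR adjusted p = 0.0822). RDH8, an outer segment retinol dehydrogenase, was at 0 in all day 32 libraries.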

How the data were processed

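Stranded, ribosome depleted total RNA of 27 libraries was sequenced as pairs of 150 bases. Per the methods of the study, the authors aligned reads with STAR 2.5.2b to GRCh38, counted genes with featureCounts 1.5.1, and removed ribosomal RNA and mitochondrial genes. The processing notes of the submitters also name cutadapt. The deposited counts are whole numbers per gene and library, of which 68.84% of those above 0 were even, which makes low counts coarser. The deposited TPM values were computed by the authors from the same counts. Whether counting used the strand was not given in the sources used here.

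Totals per library ran from 25620624 to 47340990 counts. Groups came from the sample labels. Counts of 44852 genes were tested in edgeR 4.0.16 (R 4.3.3) with TMM scaling and quasi-likelihood F tests, after removal of genes with a sum of 1 or less, with sequencing lane, which is the replicate number, as a block, as in the model of the study. Changes between days were fitted on 27 libraries, matrices on the 9 of a day, and differences in the change from day 22 to day 32 on 18, and p-values were adjusted over all genes by the Benjamini-Hochberg method. The standard error is the absolute log2 fold change divided by the square root of F. Of 27 correlations of same-lane deviations between matrices within a day, over 14675 genes, 17 were above 0.1. Between LN523 and LN323 all 3 were at day 22 (0.54, 0.805, and 0.444) and at day 32 (0.712, 0.65, and 0.701). Same-lane libraries of these 2 matrices thus deviated together on these days. At day 2 the same pair had 0.0994, -0.673, and -0.586. No other pair of matrices had all 3 above 0.1 on any day. Between LN521 and either other matrix, lane 1 was below 0 at days 22 and 32, from -0.275 to -0.146. Replicates of no group agreed within sampling noise (mean chi-square per gene at least 14.66 over 27 pairs). The fits were tested on simulated data.

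Alternatives were DESeq2 1.42.0, another scaling (RLE), a stricter filter, no lane, only the 2 groups compared, and leaving out each library. The 44 genes and the other lists were chosen with earlier results of these data known. Values in every library were given for the 12 genes with the highest mean TPM at day 32, those called between matrices at days 22 and 32, and rod or cone counterparts detected in any group, with the rest by range and count, and other genes with values were chosen after these were seen. A group with 0 counts was set to a floor of 3 counts in sum for bounds. Most counts above 0 were even, so single counts may not be independent, and the bounds may be too high. They cover no spread between libraries. Tables were made with Python 3.11.15 and pandas 2.3.3.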

Additional observations from a re-analysis of the deposited data

Results flagged for a closer look

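EYS, which encodes a large protein of the matrix around photoreceptors, had mean changes in opposite directions on different matrices between days 2 and 22. On the log2 scale of TPM + 0.1 its mean change was 0.59 on LN523 and -0.74 on LN521, a difference of 1.34. With libraries of both days matched by replicate number, each of the 3 replicates went up on LN523 and down on LN521. On LN323 the mean change was 0.90, which differed from LN521 by 1.64, again with all 3 replicates of each matrix in opposite directions. A replicate number is not stated to follow 1 culture over the days. The differences between matrices were not tested. Between days 2 and 22 EYS was called on no matrix in edgeR, and DESeq2 called it on LN521 alone. EYS stood at 0.327 to 0.612 TPM on LN521 at day 2 and at 0.0382 to 0.399 TPM in the other day 2 and day 22 libraries, and 12.9% of its exonic length lies opposite other genes. At day 2 the median log2 fold change over all genes was -0.20 for LN323 and -0.19 for LN523, each against LN521. Over the 40 tested genes of the list it was -0.41 and -0.49. The part of these differences in the changes of EYS was not tested.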

How the results depend on the processing

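Calls in the smaller comparisons depended on the fit. With only the 2 groups compared in edgeR, 8 genes were called from day 22 to day 32 on LN523 (beside 1.34% of all genes in the same fit), 5 on LN521 (1.01%), and 1 (RBP3) on LN323 (0.962%), 2 between LN323 and LN521 (0.77%) and 1 between LN523 and LN323 at day 22 (0.269%), and 6 between LN523 and LN323 at day 32 (2.82%). With filterByExpr the counts were 0 for day 22 to day 32 on LN523 and LN521 and for LN323 against LN521 at days 2 and 22, where 0%, 0.0195%, 0%, and 0% of all genes were called. DESeq2 called 0 for LN323 against LN521 at day 2 (beside 2.32%), and at day 32 it called 2 for LN323 against LN521 (2.03%), 6 for LN523 against LN323 (2.09%), and 1 for LN523 against LN521 (2.09%). The fit with no replicate block called 2 genes between LN323 and LN521 at day 2 (beside 3.82%) and 0 at day 22 (0%). Same-lane libraries deviated together in every lane only between LN523 and LN323 at days 22 and 32, and the lane is not stated to mark a shared culture. The causes of these differences were not tested, other than that fewer libraries entered the fit of 2 groups.

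Leaving out each library in turn gave 11 to 14 genes between days 2 and 22 on LN523, 9 to 12 on LN323, and 9 to 16 on LN521. From day 22 to day 32 it gave 2 to 4 on LN523, 0 on LN323, and 1 to 3 on LN521. Between LN323 and LN521 it gave 0 to 4 at day 2, 0 to 3 at day 22, and 0 to 4 at day 32, between LN523 and LN521 at day 22 it gave 0 to 2, and for the change from day 22 to day 32 in LN323 against LN521 0 to 1. The shares of all genes called in these fits are not given here. A change in these counts can therefore not be told from a change in the calls of all genes. Detected genes ranged from 21 to 28 on LN523 at day 32, and by at most 4 in each other group.

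Of 70 fold changes of single genes, 69 kept direction and side of the threshold with RLE scaling, 67 with no block, 60 with DESeq2, and 58 with filterByExpr. With only the 2 groups compared 47 of 58 did, and of 492 fits that left out 1 library 417 did, 52 did not pass the threshold, and 23 changed sign. The 70 include differences between matrices that were not called in the main fit, which count as kept when they stayed uncalled in the same direction. Of the called changes, 12 did not pass with filterByExpr and 7 with only the 2 groups compared. With DESeq2, no block, and RLE scaling it was 6, 3, and 1. DESeq2 gave PDC at day 32 as -0.00 for LN523 against LN521. On the log2 scale, leaving out 1 library turned the direction at day 32 of AIPL1 (-0.24 to 2.34) and CRB1 (-0.21 to 0.79) for LN523 against LN323, and of PDC (-0.68 to 1.21), RBP3 (-0.39 to 0.85), and AIPL1 (-0.57 to 1.89) for LN523 against LN521. It also turned the difference in change from day 22 to day 32 of PDC (-0.21 to 5.73) and AIPL1 (-0.18 to 1.64) for LN523 against LN323, and of RCVRN (-1.19 to 1.39), PDC (-1.80 to 2.70), and RBP3 (-3.47 to 0.29) for LN523 against LN521. None of these was called in the 9 or 18 libraries. Where every library of both groups had fewer than 10 counts, a missing call says only that no difference was detectable at this depth.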
